A study of Gallus gallus with 60 samples.

Results

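The comparison of Lohmann Selected Leghorn (LSL) with Lohmann Brown (LB) hens that lived in groups of 54 rests on 30 of the 60 hens of the series, 14 LSL and 16 LB. The hens were chosen by the group size and line in their labels, with no use of a measured value. The other 30 hens, 16 LSL and 14 LB, lived in groups of 36 and served as a second, separate set of hens for the same comparison. LSL is a commercial white-egg Leghorn layer and LB a commercial brown-egg layer. Both lines are sold as production hybrids, so a hen stands for a commercial cross and not for an inbred strain. All hens were 65 to 68 weeks old and lived in one small group housing system with the same feed, in compartments that held hens of a single line. The study took several hens per compartment and looked for stressed and unstressed birds, but the labels give neither the compartment nor that status of a hen. RNA came from the cerebrum without meninges. The labels name the posterior right side, while the methods name the posterior left and right side.

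The cerebrum of a bird holds the pallium, the striatum and smaller regions, and the array measured RNA from all cell types in a piece of it. Neurons, glia, vessels and blood left in the vessels all add to a value. A difference between 2 lines in bulk tissue can come from the cells that are there or from the RNA in each cell, and these cannot be told apart here. Brown and white layers have been bred apart for many generations, and inherited differences in sequence can change both the level of an RNA and how well a probe on an array binds it.

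Each hen was measured on 1 Affymetrix chicken gene array, and the authors deposited log2 values after robust multi-array averaging (RMA). A row of that table holds 1 or more probe sets, a median of 7, and stands for a gene, a transcript or a piece of one. With 14 and 16 arrays the number of arrays limits the precision, and the median standard error (SE) of a line difference was 0.067 on the log2 scale. The median of every array was 6.86. The arrays fell into a larger and a smaller set on the first principal component, which held 21.6% of the variance among the 30 hens, and no label names these sets. Of the hens in groups of 54, 4 LSL and 4 LB belonged to the smaller one. The second component held 13.4% of the variance and kept the lines apart with no overlap. Its values ran from -0.010 to 0.302 in LSL and from -0.338 to -0.036 in LB. Among lists of marker genes the mean log2 difference (LSL minus LB) was largest in oligodendrocytes (0.151) and in striatum and basal ganglia (0.11). In the other lists it lay between -0.07 and 0.059. The mean log2 value of 9 measured of 16 listed neuron markers ran from 10.62 to 10.78 in LSL and from 10.59 to 10.75 in LB. That of 10 measured of 23 listed pallium markers ran from 9.26 to 9.65 and from 9.28 to 9.61. None of these 10 genes passed the test, against 11.8% of all genes. The mean of 8 measured of 19 listed oligodendrocyte markers reached further up in LSL (8.63 to 9.40) than in LB (8.52 to 8.94). Of the 8 genes 7 had a log2 fold change above 0 and 1 was past the threshold. In striatum and basal ganglia 12 of 16 measured genes were above 0.

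In the cerebrum of hens from groups of 54, LSL and LB differed most plainly in single genes. TERT, the catalytic subunit of telomerase, CENPK, a kinetochore protein, AKR7A2, a reductase of reactive aldehydes, and PARVB, an adaptor between integrins and actin, were higher in every LSL hen than in every LB hen. NANS, which makes sialic acid, NEU2, a sialidase that removes it, and UNC119, a carrier of lipid-modified proteins, were lower in every LSL hen. Of 16316 tested rows, 1824 passed an adjusted p under 0.05 in limma, which is 11.2%, with 775 (4.75%) higher and 1049 (6.43%) lower in LSL. The differences were mostly small. Among rows past the threshold the median change was 1.21-fold, 865 of them changed by less than 1.2-fold, and 35 (0.215% of all rows) reached 2-fold, of which 12 were higher and 23 lower. At an unadjusted p under 0.05 there were 3978 rows. A fit that took hens of consecutive number as pairs, which may have shared a compartment, is called the paired-hen fit and passed 1038 rows. All pairs lay within an array set, and with the set as a term beside the pairs 2185 rows passed. Since the same values revealed the sets, the p-values of that fit are too small.

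SNORA5, a small nucleolar RNA that guides pseudouridylation, had the largest change among the rows with a gene name. Its log2 value ran from 8.32 over a median of 9.03 to 9.89 in LSL and from 5.55 over 6.33 to 6.70 in LB. A gap of 1.63 separated the lines, and the log2 fold change was 2.82 (SE 0.15, adjusted p = 1.5e-14 from limma). The row holds a single probe set, so the change rests on it alone. The name comes only from the study's supplementary list, as do those of AKR7A2, UPK1B, COQ6, SYT1, RPL21, SNORA44, ASCC3L1, the H4 row, C6orf105, C20orf177, LOC777154, LOC770006, FSCN1, C15ORF40 and INTS6. That list holds the probe sets that the study called different between the lines in the same series of hens. A row named only from it thus has its name because of a line difference, which favours such rows in rankings and counts of named rows. The list and the platform table gave the same symbol or a listed synonym in 92 of 142 rows that both named. The identity of the rows named only from the list is less certain to that extent.

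TERT ran from 5.21 over a median of 5.69 to 6.18 in LSL and from 4.19 over 4.68 to 4.92 in LB. The lines did not overlap, and the log2 fold change was 1.01 (SE 0.088, adjusted p = 8.7e-10 from limma) over a row of 37 probe sets. The LB mean of 4.66 is under 5.085, the value that a row's mean over the arrays had to reach for testing, so the size of this change is less certain than its direction. CENPK was at 6.72, 6.99 and 7.21 as the lowest, median and highest LSL hen and at 5.76, 6.09 and 6.48 in LB. Here too no hen of one line reached the range of the other, with a log2 fold change of 0.85 (SE 0.062, adjusted p = 1.6e-11). AKR7A2 kept to a narrow range in each line, from 8.34 over 8.53 to 8.70 in LSL and from 7.58 over 7.72 to 8.01 in LB. Its log2 fold change of 0.75 (SE 0.044) had an adjusted p of 1.9e-13. PARVB lay between 8.21 and 8.92 in LSL and between 7.39 and 7.99 in LB, a log2 fold change of 0.78 (SE 0.071, adjusted p = 2.1e-09). BTF3, a subunit of the complex that meets new peptide chains at the ribosome, lay between 7.80 and 8.94 in LSL and between 7.18 and 7.74 in LB. Its lines were apart by 0.056, and the 4 LSL hens of the smaller array set were the 4 lowest of their line.

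Other genes were higher in LSL on average with an overlap of the lines. UPK1B, a tetraspanin known from the urothelium, ran from 6.16 over a median of 7.88 to 9.35 in LSL but only from 5.71 over 6.15 to 6.92 in LB. Most LSL hens lay far above the LB hens, and 2 of 14 lay within the LB range (log2 fold change 1.53, SE 0.24, adjusted p = 2.8e-05 from limma). JCHAIN, named IGJ in the files, links the units of IgA and IgM and is made by plasma cells. It was spread widely within both lines, with 6.80, 9.16 and 11.25 as the lowest, median and highest LSL hen and 5.87, 7.63 and 9.22 in LB. Its lines overlapped broadly, since 12 of 16 LB hens reached the LSL range. The log2 fold change was 1.42 (SE 0.39, adjusted p = 0.014 from limma). The adjusted p was 0.070 in the paired-hen fit and 0.018 with the array set added to it. Blood or plasma cells left in the tissue were not measured apart.

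MRPL13, a protein of the large mitochondrial ribosomal subunit, ran from 5.84 over 6.85 to 7.21 in LSL and from 5.01 over 5.63 to 6.85 in LB. The log2 fold change was 1.12 (SE 0.14, adjusted p = 8.2e-07 from limma), and all 14 LSL hens lay above the LB median. ANXA2, a calcium-dependent membrane binder, lay between 7.65 and 9.03 in LSL and between 7.29 and 7.90 in LB. COQ6, an enzyme of coenzyme Q synthesis, lay between 8.03 and 9.23 in LSL and between 7.11 and 8.40 in LB. Both passed, with log2 fold changes of 0.82 and 0.70. PLBD1, a phospholipase B-like protein (log2 fold change 0.82), CYTL1, a secreted factor of cartilage (0.75), MIR3528 (0.69) and LOC777154 (0.91) completed the 15 named rows with the largest rise. CYTL1 did not pass within the larger array set alone, where its log2 fold change was 0.65 (adjusted p = 0.052 from limma).

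**Figure D1:**
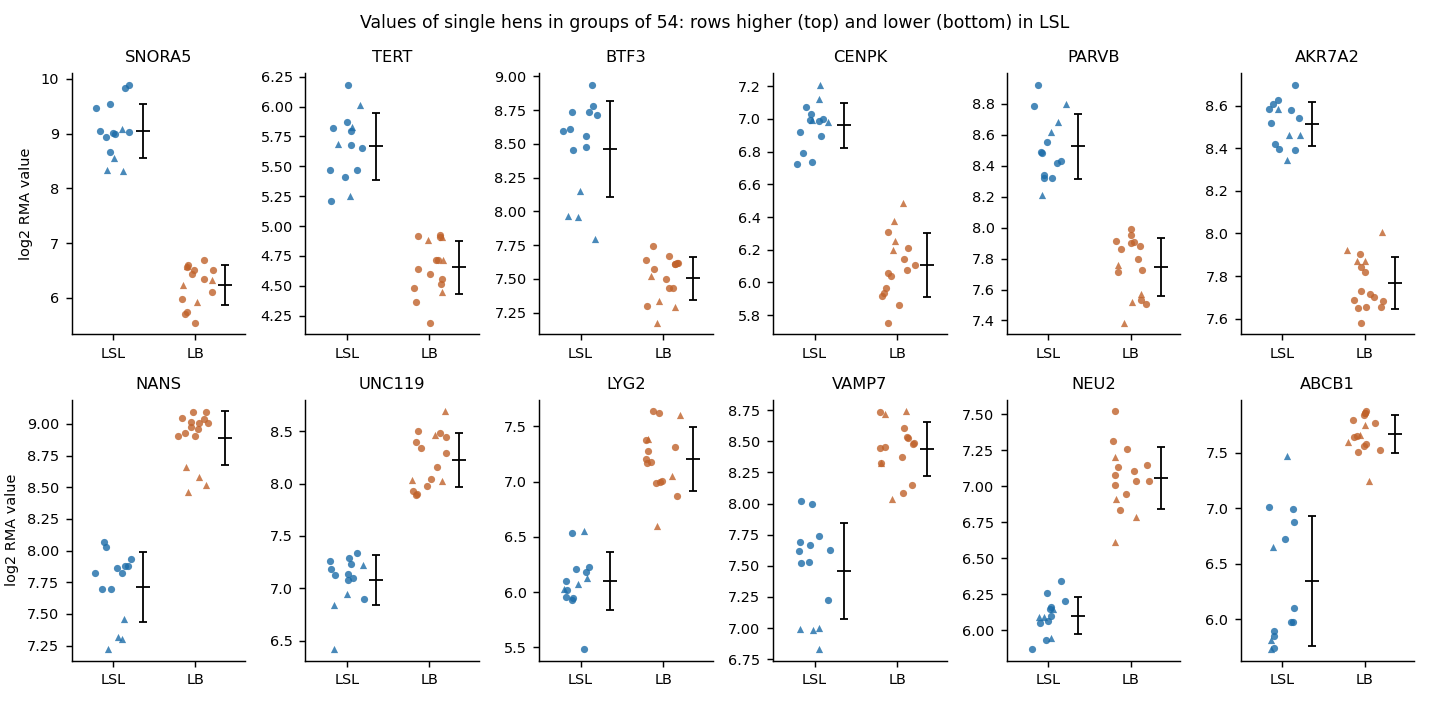
Log2 RMA value of each hen in groups of 54 (14 LSL, blue; 16 LB, orange) for 12 rows, 6 higher in LSL above and 6 lower below, with circles for the larger and triangles for the smaller array set and black marks for the mean and SD. In 11 rows the lines do not overlap, while in ABCB1 1 LSL hen at 7.47 lies within the LB range of 7.25 to 7.87.

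Among the rows lower in LSL, NANS ran from 7.22 over a median of 7.82 to 8.06 in LSL and from 8.46 over 8.97 to 9.10 in LB. No hen reached the other line's range, and the log2 fold change was -1.17 (SE 0.086, adjusted p = 1.7e-11 from limma). UNC119 had the widest gap of the rows lower in LSL that had a name and no overlap, 0.556. Its values were 6.42, 7.14 and 7.33 in LSL and 7.89, 8.23 and 8.69 in LB, a log2 fold change of -1.15 (SE 0.088, adjusted p = 4.1e-11). NEU2 ran from 5.87 over 6.10 to 6.34 in LSL and from 6.62 over 7.06 to 7.52 in LB. The lines stood 0.271 apart, and the log2 fold change was -0.96 (SE 0.066, adjusted p = 4.6e-12).

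ABCB1 encodes P-glycoprotein, the efflux pump that keeps many drugs out of the brain at the vessel wall. LB hens lay close together, from 7.25 over a median of 7.66 to 7.87, while LSL hens ran from 5.73 over 6.04 to 7.47. The log2 fold change was -1.33 (SE 0.15, adjusted p = 8.7e-08 from limma), and the row holds 23 probe sets. Of the LSL hens, 8 lay at or below 6.10 and 6 at or above 6.65, with no value between. ABCB1 also stands in the list of endothelial markers, of which PECAM1, an adhesion protein of the vessel wall, was lower in LSL as well (log2 fold change -0.32, adjusted p = 0.0093 and 0.073 in the paired-hen fit). In groups of 36 PECAM1 was at -0.04 (adjusted p = 0.89 from limma). The other 14 of the 16 measured genes of that list did not pass. The median log2 fold change of the list was 0.04, and 10 of the 16 genes were above 0. The mean over the list ran from 7.06 to 7.39 in LSL and from 7.11 to 7.36 in LB. The part of vessels in the ABCB1 result was not tested.

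Several genes were named by 2 rows, which in LYG2, VAMP7 and NUDT7 did not move together. LYG2, a goose-type lysozyme that cuts bacterial cell walls, had a row from 5.49 to 6.55 in LSL and from 6.60 to 7.64 in LB. That row did not overlap between the lines (log2 fold change -1.11, SE 0.097, adjusted p = 8.7e-10 from limma), while the other row of LYG2 changed by -0.013 (adjusted p = 0.94). The means of that other row, 5.10 in LSL and 5.11 in LB, lie close to the limit of 5.085, so little can be read from it. VAMP7, a SNARE protein of late endosomes and neurites, had a row of 1 probe set with a log2 fold change of -0.98 (adjusted p = 9.8e-08). The VAMP7 row of 9 probe sets was at 0.064 (adjusted p = 0.33). NUDT7, a peroxisomal enzyme that splits coenzyme A, fell in a row of 2 probe sets (log2 fold change -1.11, adjusted p = 0.00014) and rose in a row of 4 (0.65, adjusted p = 0.018). SPARCL1, a matrix protein of astrocytes that promotes synapses, fell in both of its rows, by 1.41 on the log2 scale in a row of 1 probe set and by 0.81 in a row of 11 (adjusted p = 0.0017). In the row of 1 probe set the LSL mean of 4.87 lies under the limit of 5.085 and the LB mean of 6.28 above it, so its size is less certain.

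The remaining named rows with the largest fall included other RNA classes. SNORA44, a small nucleolar RNA, ran from 6.77 over 7.65 to 8.67 in LSL and from 7.92 over 8.96 to 10.20 in LB (log2 fold change -1.41, SE 0.20, adjusted p = 8.0e-06 from limma). MIR9-2, a precursor of the neural microRNA miR-9, ran from 5.22 over 5.62 to 6.51 in LSL and from 5.88 over 7.04 to 7.55 in LB (log2 fold change -1.29, SE 0.14, adjusted p = 9.8e-08). In both rows all 16 LB hens lay above the LSL median, and both hold 1 probe set. RNF213, a large ubiquitin ligase with an ATPase domain, had a log2 fold change of -1.07 (adjusted p = 4.1e-06). C6orf105, an older name of ADTRP, a membrane protein known from coagulation, was at -1.28 (adjusted p = 4.4e-08), and 1 LSL hen reached the LB range. LOC770006 ran from 6.29 to 7.78 in LSL and from 7.59 to 8.64 in LB. ASCC3L1, an older name of the spliceosome helicase SNRNP200, and a row named for histone H4 fell by 1.33 and 1.05, each over 1 probe set.

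In 45 rows (0.276% of those tested) the lowest hen of one line lay above the highest of the other, 22 higher and 23 lower in LSL. Of them 25 had 1 gene name, some only through the study's list of line differences. Besides the 11 rows described above, 14 had a name, and except for RNF207, TCTN2 and RPL14 they were named after their values were seen. Lower in LSL were FSCN1, which bundles actin (log2 fold change -0.93), RPL14, a protein of the large ribosomal subunit (-0.70), RNF207, a RING finger protein known from heart muscle (-0.44), and NREP, a small neuronal protein (-0.31). RBMX2 (-0.64), FSD1L (-0.57), C15ORF40 (-0.81) and C20orf96 (-0.54) were lower too. Higher were LARP6, an RNA-binding protein known from collagen messages (0.65), INTS6, a subunit of the Integrator complex (0.51), and TCTN2, a protein of the ciliary transition zone (0.49). ITGA6, the laminin-binding integrin subunit α6 (0.47), NIPSNAP3A (0.32) and NOL7 (0.32) were higher too.

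**Figure D2:**
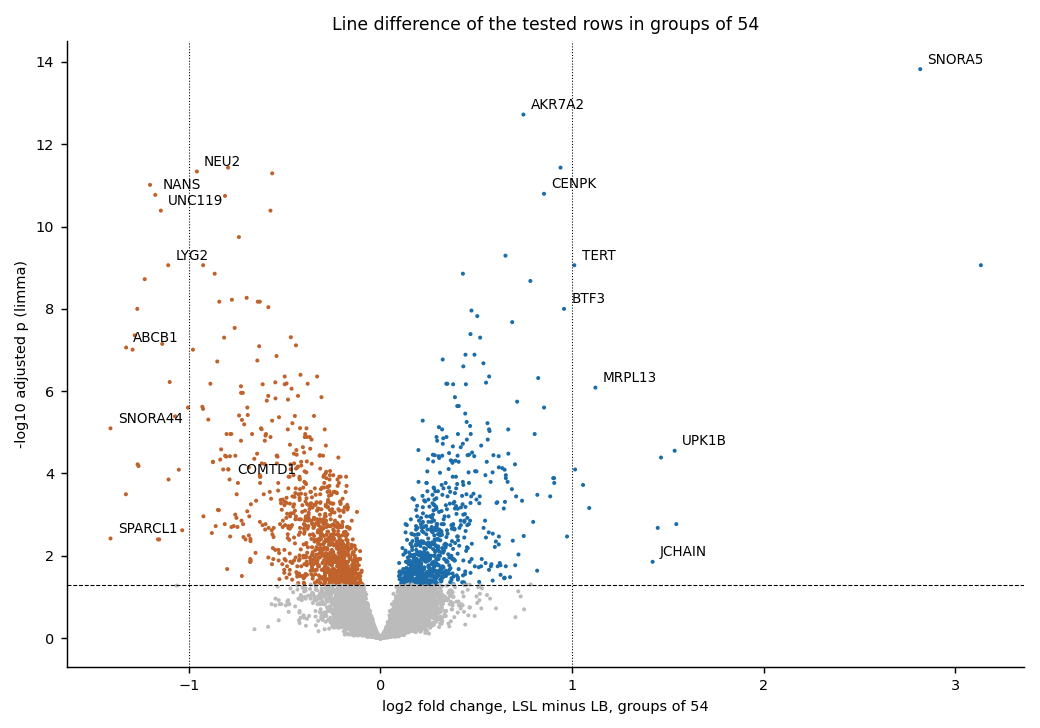
Log2 fold change (LSL minus LB, horizontal axis) against -log10 of the adjusted p from limma (vertical axis) for the 16316 tested rows in groups of 54, blue for rows higher and orange for rows lower in LSL past the threshold (dashed line), grey for the rest, with dotted lines at 2-fold. The 35 rows past both limits stand at the edges, 12 on the right and 23 on the left, and most of the 1824 rows past the threshold lie well inside the dotted lines.

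Of the 35 rows changed at least 2-fold, 18 have 1 gene name, some only through the study's list of line differences. A name is missing in 16, and also in 8608 of all 16316 tested rows. A single probe set is held by 17 of the 35, against 15.2% of all tested rows. The form of control rows was found in 4 of the 35, and without such rows 31 reached 2-fold, 12 higher and 19 lower. The largest change of all was in a row of 1 probe set without a name, with a log2 fold change of 3.13 (SE 0.27, adjusted p = 8.7e-10 from limma). It ran from 5.33 over 6.26 to 7.17 in LB, while in LSL 1 hen lay at 6.24 within the LB range and the highest reached 10.70.

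In some rows the hens of 1 line formed a low and a high cluster. In 179 rows the values of a line fell apart by at least 0.5 between neighbouring hens with at least 3 hens on each side, in 112 rows within LSL and in 91 within LB. Of these rows 11.2% passed the line test, as did 11.2% of all rows, and 49.7% hold a single probe set against 15.2% of all tested rows. ASCC3L1 was between 6.49 and 7.27 in all LSL hens. In LB, 6 hens lay in or near that range, at or below 7.41, and 10 lay at or above 8.39. The H4 row had the same form, with LSL between 9.93 and 10.34, 6 LB hens at or below 10.48 and 10 at or above 11.37. C6, a component of the membrane attack complex of complement, was between 4.70 and 5.46 in LSL. In LB 5 hens were at or below 5.16 and 11 at or above 5.75, up to 6.93, over a row of 19 probe sets (log2 fold change -0.86, SE 0.19, adjusted p = 0.0019 from limma). The LSL mean of C6, 5.085, lies at the limit of 5.085 for testing. The size of the C6 change and of its gap is thus less certain.

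In TUBA4A, an α-tubulin, 3 LB hens at or below 4.22 lay apart from the other 13 at or above 5.07, while LSL ran from 5.88 to 6.71. Values as low as those of the 3 hens lie under the limit of 5.085 set for row means, so the width of this gap is less certain. The TUBA4A log2 fold change of 0.68 (adjusted p = 0.033) did not pass in the paired-hen fit (0.12), nor without LB hen 50 (log2 fold change 0.64, adjusted p = 0.051 from limma). In SPARCL1 both lines fell apart, with 8 LSL hens at or below 5.01 and 6 at or above 5.62, and 3 LB hens at or above 7.30. In 77 of the 179 rows the gap of a line fell exactly between the array sets, and 1 of these 77 rows passed the line test. In ASCC3L1, H4, TUBA4A and C6 the low hens included 2, 1, 1 and 1 of the 4 LB hens in the smaller set, and in ABCB1 and SPARCL1 2 of its 4 LSL hens, so the sets were mixed across these gaps. In SPARCL1 all 4 LB hens of the smaller set were among the 13 low LB hens. Pairs of hens with consecutive numbers lay on one side of the gap to a varying degree, in ASCC3L1 2 of 8 LB pairs, in C6 3, in TUBA4A 5, in H4 6 and in SPARCL1 7. Among the 7 LSL pairs these were 1 in ABCB1 and 3 in SPARCL1.

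**Figure D3:**
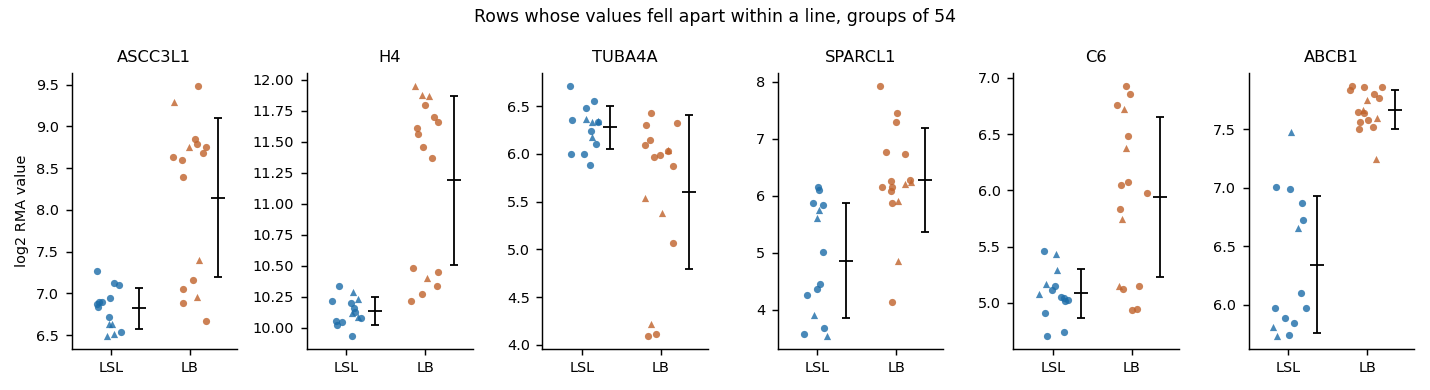
Log2 RMA value of each hen in groups of 54 for the 6 named rows past the line test that had the widest gap inside a line (14 LSL, blue; 16 LB, orange; circles larger, triangles smaller array set; black marks mean and SD). The 16 LB hens form a low and a high cluster in ASCC3L1, H4 and C6, with LSL hens at the low level, while the 14 LSL hens form them in ABCB1.

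To describe gene groups, the rows that the platform table named for a gene were reduced to their median, which gave 7194 genes. Rows named only from the study's list were left out. The rows of AKR7A2, RPL21, SYT1 and H4 are thus counted in no gene list. Of these 847 (11.8%) passed, 357 (4.96%) higher and 490 (6.81%) lower in LSL. In the paired-hen fit 467 passed, and 1014 with the array set added to it. Counts of a list in the paired-hen fit are to be read against 467 of 7194 genes. The lists were chosen with earlier results of these data known. Some hold genes already named above for their line difference, such as NANS, NEU2, TERT, CENPK and ABCB1. These genes add to the share of their list, so a share above that of all genes is no separate evidence about the list. The median log2 fold change over all genes was 0.00. In groups of 36, 10.6% of genes passed, 5.23% higher and 5.37% lower.

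Sialic acids are acidic sugars at the ends of the glycans on cell surfaces, and their genes fall into makers, transferases and removers. Of 20 measured genes 1 was higher and 3 were lower, a share of 20.0% against 11.8% of all genes. The 3 lower genes include NANS and NEU2, which were named above for their line difference. The median log2 fold change was -0.05. The maker NANS (-1.17) and the remover NEU2 (-0.96) fell together, by the largest amounts in this list. Of the transferases, ST6GALNAC5, which acts on gangliosides, was at -0.22 (adjusted p = 0.016 from limma), while ST8SIA6, which adds a sialic acid to another, was higher at 0.44 (adjusted p = 0.00052). ST6GALNAC5 did not pass in the paired-hen fit (adjusted p = 0.080).

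Enzymes against oxidative stress and reactive aldehydes passed more often as higher than as lower, 7 against 2 of 42 measured genes. That is a share of 21.4% against 11.8% of all genes. In the paired-hen fit 5 and 2 of the 42 passed, against 467 of all 7194 genes. Mitochondrial PRDX3, a peroxidase for hydrogen peroxide, ran from 9.77 over 9.98 to 10.63 in LSL and from 9.32 over 9.58 to 9.79 in LB. The lines overlapped at their edges only (log2 fold change 0.56, adjusted p = 9.7e-06 from limma). SOD2, which makes hydrogen peroxide from superoxide in mitochondria, was at 0.27 (adjusted p = 0.0060), CBR4, a carbonyl reductase, at 0.46 (adjusted p = 0.00014), and ALDH1L2, a mitochondrial folate enzyme, at 0.29 (adjusted p = 0.0018). Lower were MGST2, a membrane glutathione transferase (-0.47, adjusted p = 6.0e-05), and ALDH6A1, of valine breakdown (-0.33, adjusted p = 0.0044). The median of the list was 0.02.

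Of 17 measured genes of telomere maintenance 3 were higher and 1 lower, a share of 23.5% against 11.8% of all genes. The median of the list was 0.02. POT1, which binds the single strand at chromosome ends, went the other way from TERT. It ran from 6.63 over 7.00 to 7.18 in LSL and from 7.05 over 7.54 to 7.93 in LB (log2 fold change -0.59, adjusted p = 1.0e-06 from limma). RIF1 and TERF2, which also bind telomeres, were each at 0.13, with adjusted p of 0.014 and 0.031. Neither passed in the paired-hen fit (adjusted p = 0.057 and 0.11).

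Kinetochore and cell division genes split in direction, 2 higher and 4 lower of 28 measured. The share was 21.4% against 11.8% of all genes, with a median of 0.02. Beside CENPK, KIF23, a motor of cytokinesis, was higher (log2 fold change 0.34, adjusted p = 0.0054 from limma). CENPQ, a partner of the inner kinetochore network to which CENPK belongs too, ran from 6.03 over 6.38 to 6.71 in LSL and from 6.37 over 7.07 to 7.24 in LB. The RNAs of these 2 genes thus differed in opposite directions, CENPQ by -0.63 (adjusted p = 5.1e-08). SPC25, of the outer kinetochore, was at -0.48 (adjusted p = 5.6e-06), and the checkpoint protein MAD2L1 and CENPC, at the base of the kinetochore, were each at -0.28. Of 10 measured core histones 2 H2B genes were lower, a share of 20.0%. They were named HIST1H2B5 (-0.47) and HIST1H2BO (-0.50), each over 1 probe set. Histone genes are nearly identical copies, so probes may read several of them. HIST1H2BO did not pass in the paired-hen fit (adjusted p = 0.075).

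Genes of mitochondrial ribosomal proteins passed in both directions, 6 higher and 4 lower of 48 measured. The share was 20.8% against 11.8% of all genes, with a median of -0.03. MRPL50 (log2 fold change 0.45, adjusted p = 4.3e-07 from limma), MRPS6 (0.40) and MRPS31 (0.22) were higher beside MRPL13, and MRPL35 (-0.55), MRPL24 (-0.25), MRPL44 (-0.21) and MRPS26 (-0.15) were lower. In the paired-hen fit 5 and 3 of the 48 passed, against 467 of all 7194 genes. Genes of cytosolic ribosomal proteins passed as 1 higher, RPS16 (0.19), and 4 lower of 47 measured, a share of 10.6%. The RPL21 row, named only from the study's list and described below, is not among the 47. RPL14 stood apart among them, from 8.14 over 8.58 to 8.73 in LSL and from 8.90 over 9.25 to 9.63 in LB with no overlap (log2 fold change -0.70, adjusted p = 3.4e-09). RPL6 was at -0.25, RPL15 at -0.22 and RPS28 at -0.19. RPS16 and RPS28 did not pass in the paired-hen fit (adjusted p = 0.079 and 0.065). These families have many pseudogene copies, and probes may be shared. Of 42 measured genes of the respiratory chain, ATP5B, the catalytic subunit of ATP synthase (0.21), and NDUFB3 of complex I (0.25) were higher. None was lower, and the share of this list was 4.8%. NDUFB3 lost its call in the paired-hen fit (adjusted p = 0.062).

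Genes of the interferon response and of pattern recognition were lower in 7 and higher in 1 of 31 measured cases, a share of 25.8% against 11.8% of all genes. The median of the list was -0.06, with 9 of 31 genes above 0. MX1, an antiviral GTPase, ran from 4.77 over 5.48 to 6.03 in LSL and from 5.37 over 5.95 to 6.62 in LB. Hens of the lines overlapped over much of that range (log2 fold change -0.48, adjusted p = 0.0034 from limma). TLR4, the receptor of bacterial lipopolysaccharide, was at -0.32 (adjusted p = 0.0021), IFNLR1, a receptor chain of interferon lambda, at -0.26 (adjusted p = 0.0011), and MAVS, the mitochondrial adaptor of RNA sensing, at -0.19 (adjusted p = 0.00081). IFITM10 was higher at 0.21 (adjusted p = 0.011). In the paired-hen fit 5 of the 7 and the 1 higher gene passed, against 467 of all 7194 genes. In groups of 36, 4 of the 31 genes were lower and none higher, where 10.6% of all genes passed (5.37% lower).

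Other immune lists varied in their share of calls. Of 15 genes of complement and lysozyme 3 were lower and none was higher. That is a share of 20.0% against 11.8% of all genes (6.81% lower). The 3 were C6, whose LSL mean lies at the limit for testing, LYG2 and CLU, a secreted chaperone that also blocks complement (log2 fold change of CLU -0.24, adjusted p = 0.0017 from limma). CLU is also an astrocyte marker, and the other 6 measured astrocyte markers did not pass. JCHAIN was the 1 gene of 8 in the immunoglobulin and B cell list that passed, and the other 7 genes had log2 fold changes between -0.20 and 0.11. No gene of the 18 measured T cell and lymphocyte genes passed, and of 19 genes of antigen presentation only DMB2, a class II loading factor, did (-0.20, adjusted p = 0.020, and 0.091 in the paired-hen fit). CYBB, the NADPH oxidase subunit of phagocytes, was lower (-0.27, adjusted p = 0.00057) in a list of 9 microglia and macrophage markers in which no other gene passed. The mean over that list ran from 7.00 to 7.31 in LSL and from 7.00 to 7.36 in LB, and its part in the immune results was not tested.

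Genes of neural transmission passed in 10.3% of synaptic vesicle and SNARE genes, 6.7% of glutamate genes, 25.0% of GABA and glycine genes and 9.7% of voltage-gated channels, against 11.8% of all genes. Of 29 measured synaptic vesicle and SNARE genes SYT13, a synaptotagmin, was higher (0.18) and ERC1, of the active zone, lower (-0.15, adjusted p = 0.0066 from limma), beside VAMP7 through its row of 1 probe set. SYT13 did not pass in the paired-hen fit (adjusted p = 0.14). Of 30 glutamate receptors and transporters GRIP1, a scaffold of AMPA receptors (-0.22, adjusted p = 0.00019), and the transporter SLC1A6 (-0.27, adjusted p = 0.039) were lower, the latter not in the paired-hen fit (0.14). Of 16 genes of GABA and glycine transmission 4 passed. The receptor subunits GABRA5 (0.43, adjusted p = 0.040) and GABRD (0.15, adjusted p = 0.021) were higher, while the subunit GABRG1 (-0.32, adjusted p = 0.0024) and SLC32A1, which loads GABA into vesicles (-0.26, adjusted p = 0.025), were lower. Of these 4, GABRG1 alone passed in the paired-hen fit (adjusted p = 0.020). Of 31 voltage-gated channel genes SCN4B, a sodium channel subunit (0.30), KCNIP4 (0.21) and KCNF1 (0.24), both of potassium channels, were higher, and SCN4B alone passed in that fit (adjusted p = 0.038). SCN4B and PTPN5, a phosphatase enriched in the striatum (0.21, adjusted p = 0.0019), were the 2 of 16 striatal markers that passed. The PTPN5 row joins 13 probe sets, while the study lists single PTPN5 transcripts both up and down in LSL, which a joint value cannot show. The mean over these 16 ran from 8.15 to 8.52 in LSL and from 8.06 to 8.32 in LB, and the part of the piece of tissue taken in these results was not tested.

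COMTD1, which resembles the enzyme that methylates catecholamines, was lower in LSL, from 7.31 over a median of 8.38 to 8.85 against 8.52 over 9.03 to 9.57 in LB. Of the LSL hens 4 lay at or below 7.68 and 10 at or above 8.20, and 4 LB hens reached the LSL range (log2 fold change -0.79, SE 0.14, adjusted p = 0.00014 from limma). QDPR, which restores the cofactor of monoamine synthesis, was at -0.30 (adjusted p = 0.041), but not in the paired-hen fit (0.11). No other gene of the 24 measured in that list passed. Of 53 neuropeptide and stress axis genes NR3C1, the glucocorticoid receptor, was at 0.17 (adjusted p = 0.024) and NPY1R, a receptor of neuropeptide Y, at -0.17 (adjusted p = 0.050, under the threshold before rounding). Neither passed in that fit (adjusted p = 0.13 and 0.16). Of 21 immediate early genes FOSL2 was lower (-0.21, adjusted p = 0.019) and lost its call in that fit as well (0.096). The share past the threshold was 8.3% in the list of COMTD1 and 3.8% in that of neuropeptides and the stress axis. It was 4.8% in immediate early genes, against 11.8% of all genes.

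Of 15 measured clock genes 3 were higher and 1 was lower, a share of 26.7% against 11.8% of all genes. CSNK1E, a kinase that marks period proteins for decay, ran from 9.16 over 9.35 to 9.50 in LSL and from 9.33 over 9.58 to 9.72 in LB (log2 fold change -0.21, adjusted p = 0.00047 from limma). FBXL21, of a ligase for cryptochromes, was at 0.20 (adjusted p = 0.0050), CRY4, a cryptochrome listed as LOC395100, at 0.23 (adjusted p = 0.019), and the transcription factor TEF at 0.10 (adjusted p = 0.019). CSNK1E and FBXL21 passed in the paired-hen fit. Of 27 nuclear receptors THRB, a thyroid hormone receptor (0.16), and HNF4A (-0.25) passed beside NR3C1, and none of the 3 did in that fit. The 3 receptors were 11.1% of their list.

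Heat shock and endoplasmic reticulum folding genes were higher in 6 and lower in none of 49 measured, a share of 12.2% against 11.8% of all genes (4.96% higher), with a median of 0.04 and 37 of 49 genes above 0. CRELD2, a folding factor induced by stress of the reticulum, ran from 7.70 over 8.37 to 8.94 in LSL and from 7.46 over 7.93 to 8.33 in LB. The LSL median lay above the highest LB hen (log2 fold change 0.45, adjusted p = 0.0052 from limma). CRYAB, a small heat shock protein of glia (0.47, adjusted p = 0.012), HSF1, the master regulator of the heat shock response (0.20, adjusted p = 0.014), and PDIA4, a disulphide isomerase (0.19, adjusted p = 0.016), were higher too. In the paired-hen fit 3 of the 6 passed, against 467 of all 7194 genes. In groups of 36, 9 of the 49 genes were higher and none lower, where 10.6% of all genes passed (5.23% higher).

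Bone and vitamin D genes gave 3 higher and 2 lower of 33 measured, a share of 15.2% against 11.8% of all genes. CYP24A1, which breaks down active vitamin D, was at 0.43 (adjusted p = 0.0026 from limma), CYTL1 at 0.75 (adjusted p = 0.0027) and KL, the co-receptor klotho, at 0.37 (adjusted p = 0.036). BMP4, a bone morphogen, was at -0.25 (adjusted p = 0.0090) and CYP27A1, a hydroxylase of sterols and vitamin D, at -0.19 (adjusted p = 0.028). CYP24A1 and CYTL1 passed in the paired-hen fit, KL, BMP4 and CYP27A1 did not. EXT2, of heparan sulphate synthesis, was at -0.03 (adjusted p = 0.77) and was named after its value was seen. The study reports EXT2 as up-regulated in LSL and proposes that this may add to their lower bone breaking strength. Its calls were made for single probe sets at 2-fold or more, over hens of both group sizes. The EXT2 value here is a gene value over the hens of the main comparison, so the measures differ. KL is also a marker of the choroid plexus, whose list of 11 measured genes lay between 6.61 and 7.58 in LSL and between 6.78 and 7.04 in LB. The part of choroid plexus in the KL value was not tested.

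The list with the largest share of calls was that of cilia and intraflagellar transport, 34.3% of 35 measured genes against 11.8% of all, with 5 higher and 7 lower. TCTN2 ran from 7.22 over 7.46 to 7.73 in LSL and from 6.65 over 7.00 to 7.19 in LB, with no overlap (log2 fold change 0.49, adjusted p = 8.4e-08 from limma). TUBGCP5, of the γ-tubulin ring (0.27), BBS10, a chaperonin of the BBSome (0.25), and TCTN3, a relative of TCTN2 (0.14), were higher as well. DYNC2LI1, of the motor for return transport, ran from 7.05 over 7.52 to 7.81 in LSL and from 7.53 over 7.92 to 8.20 in LB. Its log2 fold change was -0.47 (adjusted p = 1.3e-05), and CCDC39, of motile cilia (-0.45), CEP290 (-0.28) and B9D1 (-0.18), both of the transition zone, were lower too. In the paired-hen fit 3 and 5 of the 35 passed, against 467 of all 7194 genes. In groups of 36, 6 of the 35 were higher and 8 lower, where 10.6% of all genes passed.

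Among the other lists, ABCB1 was the 1 gene of 15 ABC transporters that passed. ELOVL5, which lengthens polyunsaturated fatty acids, was the 1 of 17 genes of ether lipids and fatty acids (-0.21, adjusted p = 0.0089 from limma), and USP20 the 1 of 34 deubiquitinases (0.12, adjusted p = 0.036). These were 6.7%, 5.9% and 2.9% of the lists, against 11.8% of all genes. USP20 did not pass in the paired-hen fit (0.11). Of the markers of single cell types, MAP2 of neurons was higher (0.13, adjusted p = 0.0082) and ERMN of oligodendrocytes was higher (0.40, adjusted p = 0.027), the latter not in that fit (0.10). LMO4, from the hippocampal list of 5 measured genes, was lower (-0.25, adjusted p = 0.013), also not in that fit (0.071). No gene of the lists for erythrocytes (5 measured), meninges (4), oligodendrocyte precursors (2) or pallium (10) passed.

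**Figure D4:**
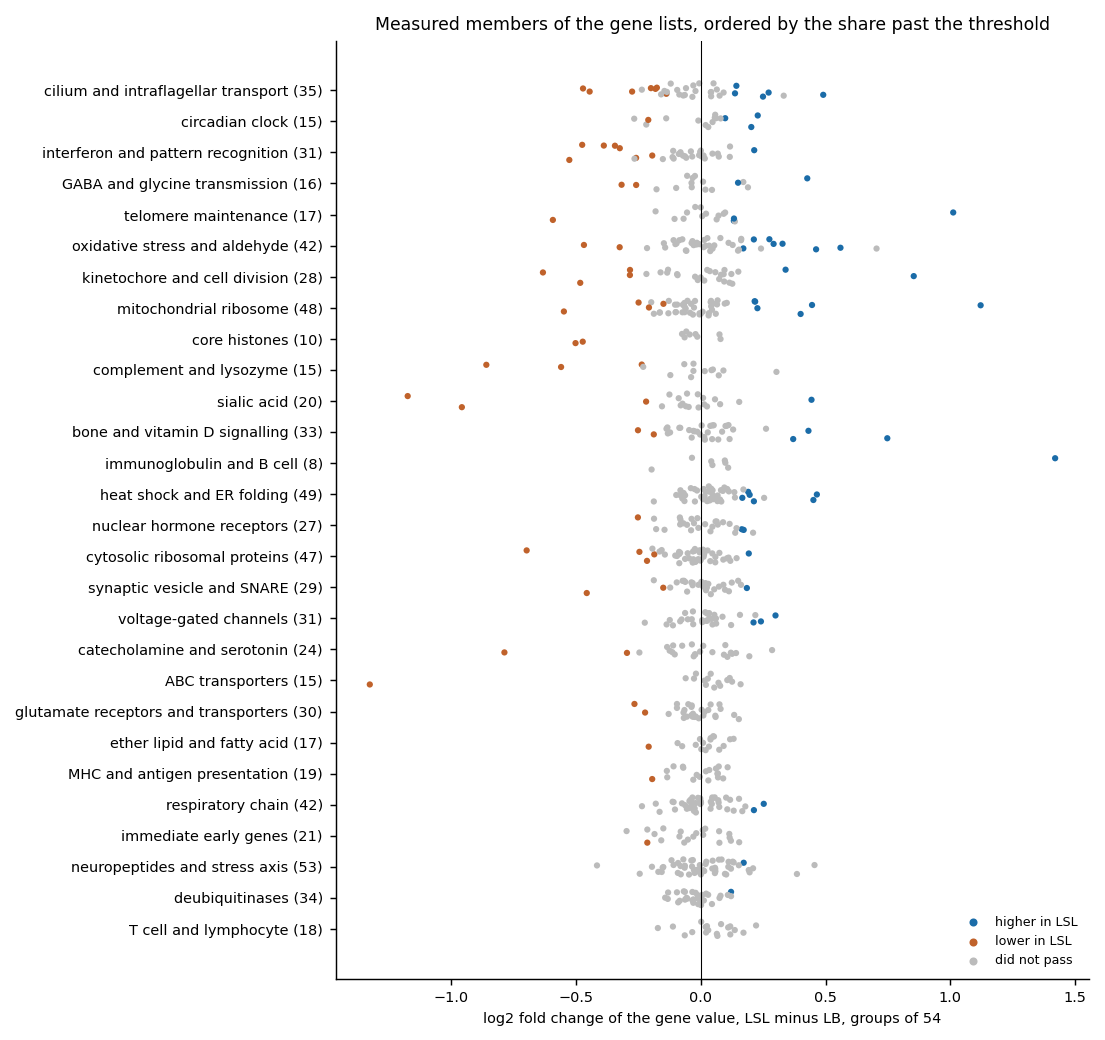
Log2 fold change (LSL minus LB, groups of 54, horizontal axis) of each measured member of 28 gene lists (number measured in brackets), blue for genes higher and orange for genes lower past an adjusted p of 0.05 from limma, grey for the rest. Most members of every list lie near 0 and single genes such as JCHAIN at 1.42 and ABCB1 at -1.33 stand apart.

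MicroRNA genes are read on this array by 1 probe set per row, which covers the precursor and not the mature strand. Of 235 tested rows 13 were higher and 7 lower in LSL, together 8.5% against 11.2% of all rows. After MIR9-2, MIR1719 was the most reduced, from 4.41 over a median of 4.76 to 5.46 in LSL and from 5.05 over 5.71 to 6.00 in LB (log2 fold change -0.85, SE 0.097, adjusted p = 1.9e-07 from limma). The lines overlapped through 5 LB hens and 1 LSL hen. The LSL mean of 4.78 lies under the limit of 5.085, so the size of this change is less certain. MIR1683 was higher, at 9.04, 9.38 and 9.61 as the lowest, median and highest LSL hen and at 7.64, 8.83 and 9.32 in LB. All 14 LSL hens lay above the LB median (log2 fold change 0.58, SE 0.10, adjusted p = 0.00016 from limma). MIR1453 had the smallest error of these rows, between 6.81 and 7.38 in LSL and between 6.51 and 7.09 in LB (log2 fold change 0.40, SE 0.059, adjusted p = 1.1e-05).

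Of the other microRNA rows named, MIR1580 (log2 fold change 0.61, adjusted p = 0.00050 from limma), MIR1764 (0.40) and MIR1800 (0.37) were higher in LSL. MIR460B (-0.44), MIR1747 (-0.40) and MIR1705 (-0.38) were lower. MIR1553 was higher by 0.43 (adjusted p = 0.044), with 4 LSL hens at or above 6.61 and all LB hens at or below 6.17. Its call was lost in the paired-hen fit (adjusted p = 0.14) and when any 1 of 17 hens was left out. In groups of 36, MIR1764 and MIR1747 were at 0.03 and -0.07, and neither passed there.

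Several genes were named because the study singles them out. RNF207 was lower in LSL with no overlap, from 6.56 over a median of 6.76 to 6.98 against 7.07 over 7.18 to 7.49 in LB (log2 fold change -0.44, SE 0.048, adjusted p = 7.7e-08 from limma). RPL21, of the large ribosomal subunit, ran from 8.39 over 8.79 to 8.93 in LSL and from 8.33 over 8.47 to 8.60 in LB. Most LSL hens lay above the LB range, and 3 lay within it (log2 fold change 0.28, adjusted p = 0.00023). C20orf177 was at 0.27 (adjusted p = 0.0025). SYT1, the calcium sensor of vesicle release, was at -0.10 (SE 0.030, adjusted p = 0.025), with LSL between 11.41 and 11.58 and LB between 11.51 and 11.86. It did not pass in the paired-hen fit (adjusted p = 0.095) and passed with the array set added to it (0.024). COMTD1, PTPN5, AKR7A2, JCHAIN and UPK1B, also singled out, are described above. The study lists these genes by single transcripts changed at least 2-fold, over hens of both group sizes. The rows here join several probe sets, 20 in RNF207, 13 in SYT1 and 7 each in RPL21 and C20orf177. A joint value cannot show the change of a single transcript, so the measures differ.

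The same contrast in the other 30 hens, in groups of 36, called 1756 rows (10.8%), of which 874 (5.36%) were higher and 882 (5.41%) lower in LSL. The 2 sets of hens share no hen, and 979 rows were called in both with the same direction, 53.7% of the rows called in groups of 54 and 55.8% of those called in groups of 36. None was called in opposite directions. Of the 1824 rows called in groups of 54, 1780 (97.6%) had the same sign in groups of 36 and 44 the opposite, against 69.7% with the same sign among all tested rows. All 35 rows changed at least 2-fold kept their direction, 32 of them passed and 27 passed at 2-fold or more. Across all tested rows the fold changes in both group sizes correlated at a Pearson r of 0.746, over rows that are not independent of each other.

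The genes named first had the same direction in both sets of hens. NANS was at -1.17 in groups of 54 and -1.22 in groups of 36, UNC119 at -1.15 and -1.20, and ABCB1 at -1.33 and -1.24. AKR7A2 was at 0.75 and 0.74, TERT at 1.01 and 1.18, and PARVB at 0.78 and 0.81. CENPK was at 0.85 and 0.73. NEU2 was at -0.96 in groups of 54 and -0.76 in groups of 36, with an unadjusted p of 0.043 for the difference and an adjusted p of 1.0 (limma). SNORA5 was at 2.82 in groups of 54 and 2.13 in groups of 36, a difference of 0.68 with an SE of 0.30 (unadjusted p = 0.027, adjusted p = 1.0 from limma). For JCHAIN the values were 1.42 and 1.50, and for UPK1B 1.53 and 1.52.

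**Figure D5:**
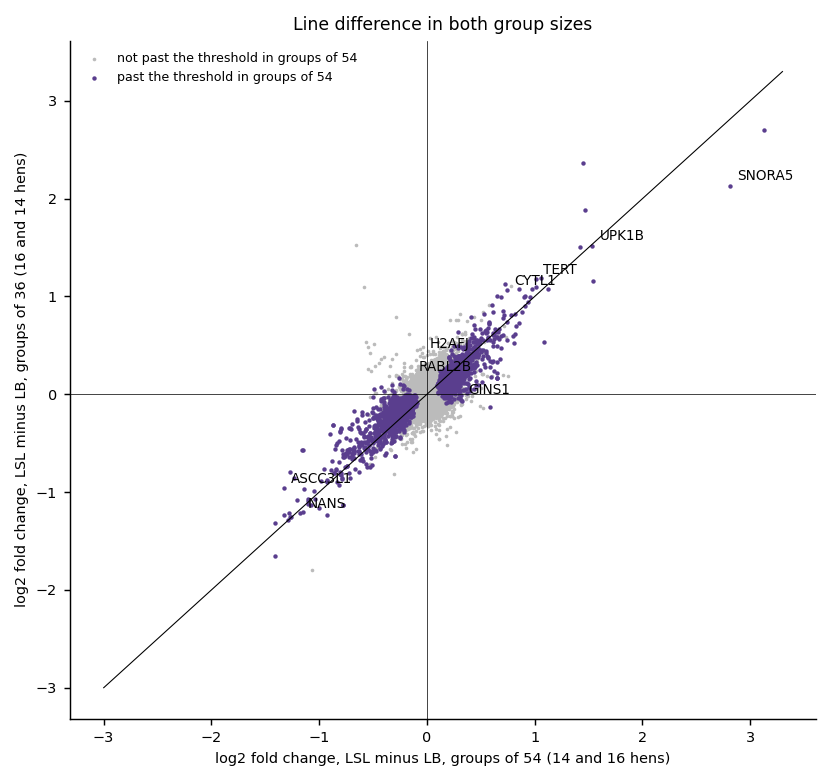
Log2 fold change (LSL minus LB) of each tested row in groups of 54 (horizontal axis, 14 LSL and 16 LB hens) against groups of 36 (vertical axis, 16 LSL and 14 LB hens), with rows called in groups of 54 in colour and the diagonal as a line of equal change. SNORA5 lies below the diagonal at 2.82 and 2.13, and most rows with a large change in one group size lie near the diagonal.

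The test of whether the line difference itself differed between the group sizes called 0 of 16316 rows in limma. At an unadjusted p under 0.05 there were 802 rows (4.92%), and the smallest adjusted p was 0.78. The median SE of that difference was 0.095 on the log2 scale against 0.067 for the line difference in groups of 54, so small differences between the group sizes were not detectable. The rows with the smallest p are given as values. GINS1, of the DNA replication complex, was at 0.32 in groups of 54 (adjusted p = 0.0027) and at -0.05 in groups of 36, while its other row was at -0.07 in groups of 54. H2AFJ, a histone H2A variant, was at -0.04 and 0.42, and CASP1, an inflammatory caspase, at -0.19 and 0.06. FKBP9, a prolyl isomerase of the reticulum, was at -0.16 and 0.14, and RABL2A, listed as RABL2B, a small GTPase linked to cilia, at -0.15 and 0.18. TGM4 (0.16 and -0.15), TEKT3 (0.16 and -0.16), KCNK5 (0.12 and -0.12), NAGLU (0.08 and -0.15) and MIR1764 completed the 10 named rows with the smallest p, with adjusted p between 0.78 and 0.91.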

How the data were processed

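Cerebrum RNA of 60 hens was hybridised to 1 array each, and 30 hens entered the main comparison. Per the labels and the methods, the authors made the deposited log2 values by RMA in GeneSpring. Scanner files were not used here. Background correction, quantile normalization and probe summary thus preceded every value. Columns were matched to hens by title. Of 20399 rows, controls and rows with a mean under 5.085 (the 20th percentile) were left out, and 16316 were tested. Names came from the platform table (7452 rows) or, where it gave none, from the study's supplementary list of probe sets called different between the lines (175 rows). No name was found for 8608 rows, and 372 symbols were updated. Where both sources named a row, 92 of 142 gave the same symbol or a listed synonym.

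Lines were compared in limma 3.58.1 (R 4.3.3) over the 30 hens, two-sided, with Benjamini-Hochberg adjustment over all tested rows. The study's own test was an unpaired t-test with a 2-fold limit, run as an alternative. The interaction used all 60 hens. Gene values were medians over rows named by the platform table, tested and adjusted over 7194 genes. Hens of consecutive number were taken as pairs (7 LSL, 8 LB) in a random block (the paired-hen fit), with a correlation of 0.314, or 0.139 with the array set as a term. P-values measure the spread between hens, which may share compartments. Tested on simulated data for the comparison of groups of 54, the fit called 27 of 50 changed rows at 1.2-fold and 48 of 50 at 1.5-fold, with 6 false calls. The simulated hens were independent, with neither pairs nor array sets, so these numbers need not hold for the real hens.

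Named rows were the 15 named rows with the largest rise and fall among those called, the 10 with the smallest interaction p, genes that the study singles out, the 12 called microRNA rows with the largest change and the 6 called rows with the widest gap inside a line. Each gene list added its 4 most significant genes at most on either side. Members, lists and these rules were chosen with earlier results of these data known.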

Additional observations from a re-analysis of the deposited data

How the results depend on the processing

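With consecutive hens as pairs in a random block, 1038 rows and 467 genes passed in groups of 54 and 889 rows in groups of 36. Within the smaller array set, with 4 hens a line, 105 rows and 75 genes passed in groups of 54, 291 rows in groups of 36, and 1 row had a line difference that depended on group size. Rows with no overlap numbered 111 in the larger and 1465 in the smaller set, where fewer hens were compared. With the array set as a block 2729 rows passed in groups of 54 and 2742 in groups of 36; since the sets were found from these values, such p-values are too small. With pairs and array set together 2185 rows and 1014 genes passed. Leaving out single hens gave 1653 to 1941 rows, 32 to 38 rows at 2-fold and 760 to 880 genes.

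Of 50 called named rows none reversed in these settings. The call was lost for CYTL1, SYT1, MIR1553 and TUBA4A in the larger set alone, for JCHAIN, SYT1, MIR1553 and TUBA4A with the pairs, for MIR1553 with pairs and array set together, and for 36 rows in the smaller set alone. The methods' t-test gave 1853 rows after Benjamini-Hochberg adjustment. Leaving out rows with the form of controls, chosen after seeing the data, gave 1792 rows and 31 at 2-fold. No paired analysis was possible because hen numbers are unique and the lines share none. Signal near background limits low rows such as TERT in LB, and 1 probe set limits SNORA5, MIR9-2 and the other rows named as such.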

Other observations

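Called genes were also set in the order of the reference annotation, used for neighbourhood only. Of 7135 pairs of neighbouring genes, 62 were called in the same direction and 54 in opposite directions. Of all genes 4.96% were called higher and 6.81% lower, so some neighbours are called together in any order. The annotation order held 4 runs of 3 neighbours called in one direction, which were named after their values were seen. How many such pairs and runs a random order would hold was not tested. BAALC, FZD6, a Wnt receptor, and CTHRC1, a secreted Wnt modulator, were lower in LSL with log2 fold changes between -0.90 and -0.25. SCIN, which severs actin, MEOX2, a homeobox factor, and ISPD, of dystroglycan glycosylation, were lower with changes between -0.80 and -0.29. C6orf203, QRSL1 and RTN4IP1, all of mitochondria, were lower with changes between -0.33 and -0.18. CHADL, RBX1, a subunit of cullin ligases, and MIR1683 were higher with changes between 0.19 and 0.58.

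In the row of 1 probe set without a name that had the largest change, the LSL hens again formed clusters, with 10 hens at or below 9.62 and 4 at or above 10.19. None of the 10 low hens was among the 4 LSL hens of the smaller array set, so the high hens were those 4. The gap thus ran along the array sets. Every pair of consecutive hens lies within 1 set, so all 7 LSL pairs had to lie on one side of the gap. The log2 fold change was 2.84 within the larger and 3.82 within the smaller set, and 2.70 in groups of 36.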
